A study of Mus musculus with 16 samples.

Results

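Described here are 10 genes of the integrated stress response that the transcription factor ATF4 carries out, measured in mouse bone marrow-derived macrophages: Atf4, Ddit3, Atf3, Trib3, Asns, Chac1, Psat1, Phgdh, Shmt2 and Mthfd2. They were chosen by name as known genes of the pathway, by a rule that uses no measured value but with earlier results of these data known, and were found under their symbols among the 54532 gene identifiers of the count tables. RNA was sequenced from 16 libraries. Marrow cells were first turned into macrophages with the growth factor M-CSF (20 ng/mL, 7 days). For the next 24 h they were kept in plain medium or in 70% tumor-conditioned medium (TCM) from YUMM1.7 cells, a melanoma line of the mouse. The first set held 3 libraries of wild-type cells without TCM, called WT naive, 3 of wild-type cells with TCM, called WT TCM, and 4 of TRAP1 knockout cells with TCM, called TRAP1 KO TCM. The JMJD3 set held TCM-treated cells only, with 3 libraries of its wild type (JMJD3 WT TCM) and 3 of its conditional knockout (JMJD3 cKO TCM). TRAP1 belongs to the HSP90 chaperones and works in mitochondria. JMJD3 (gene Kdm6b) is a demethylase that acts on histone H3. The labels name no strain, age, Cre driver or deleted exons, and do not say whether replicates were separate animals or cultures, so the spread behind each p-value may be only technical. No knockout was measured without TCM, and no JMJD3-line cells without TCM were analysed here.

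The integrated stress response starts when one of 4 kinases phosphorylates the translation factor eIF2, which slows translation in general while the Atf4 message is translated more. ATF4 protein then raises genes for amino acid synthesis and import, tRNA charging and, when stress lasts, cell death. In many cell types faults of mitochondria feed into this response, and enzymes of serine synthesis and mitochondrial folate metabolism are among its most responsive targets. Because ATF4 is controlled largely through translation and protein stability, the level of its mRNA is not a measure of its activity. No protein was measured here.

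The knockout labels were checked on the targeted genes. Levels are mean ± SD in CPM, the counts of a gene divided by its library's scaled total. Trap1 was at 67.7 ± 5.52 CPM (n = 3) in WT TCM and at 0.0377 ± 0.0253 CPM (n = 4) in TRAP1 KO TCM, where the 4 libraries held 3 counts between them. Kdm6b was at 25.1 ± 1.69 in JMJD3 WT TCM against 25.6 ± 1.02 CPM in JMJD3 cKO TCM (n = 3 each), so its count over the whole gene did not show the deletion. A deletion of only some exons would not be seen in such a count, and "JMJD3 cKO TCM" means the libraries so labelled. Libraries held 15361604 to 22426820 counts. The macrophage markers Adgre1, Csf1r, Cd68, Fcgr1, Mertk, Itgam and Lyz2 summed to between 12433 and 26000 CPM in every library. Sums were 15598 to 15811 CPM in WT naive, 25533 to 26000 CPM in WT TCM and 24296 to 24546.5 CPM in TRAP1 KO TCM. Lyz2 alone was at 7978 CPM in WT naive and 17940 CPM in WT TCM. By the test used below, 4 of the 7 rose and 3 fell with TCM, and 2 rose and 4 fell in TRAP1 KO TCM. Against WT TCM, 3 were higher and 4 lower in JMJD3 WT TCM. The 2 sets of libraries stood apart. Xist, the X-inactivation RNA of female cells, was at 845 ± 7.01 and 919 ± 14.7 CPM in JMJD3 WT TCM and JMJD3 cKO TCM, and had at most 1 count per group elsewhere. The Y-linked gene Ddx3y had 0 counts in both JMJD3 groups and means of 85.2 to 87.2 CPM in the 3 groups of the first set. Line, sex and experimental set cannot be told apart between the sets, and each knockout was therefore compared with the wild type of its own set.

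The 10 genes lie on 7 chromosomes, and all are protein coding. In mm10 (GRCm38) coordinates, Atf4 (ENSMUSG00000042406) lies on chromosome 15 at 80255184 to 80257541, plus strand. Ddit3 (ENSMUSG00000025408) lies on chromosome 10 at 127290774 to 127296288, plus strand, where its span overlaps that of Mars on the opposite strand. Shmt2 (ENSMUSG00000025403) lies on the same chromosome at 127517123 to 127522444, minus strand. Atf3 (ENSMUSG00000026628) is on chromosome 1 at 191170296 to 191218039, minus strand. Chromosome 2 holds both Trib3 (ENSMUSG00000032715, 152337422 to 152344032, minus strand) and Chac1 (ENSMUSG00000027313, 119351229 to 119354381, plus strand). Chromosome 6 holds Asns (ENSMUSG00000029752, 7675169 to 7693254, minus strand) and Mthfd2 (ENSMUSG00000005667, 83305691 to 83325908, minus strand). Psat1 (ENSMUSG00000024640) is on chromosome 19 at 15904678 to 15947337, minus strand, and Phgdh (ENSMUSG00000053398) on chromosome 3 at 98313170 to 98339990, minus strand. The sources used here do not say whether counting was by strand, so reads of Ddit3 and Mars cannot be separated with certainty. Mars, the methionyl-tRNA synthetase, had means of 59.9 (WT naive), 80.6 (WT TCM), 70.9 (TRAP1 KO TCM), 79.9 (JMJD3 WT TCM) and 83.5 CPM (JMJD3 cKO TCM), an order unlike that of Ddit3.

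ATF4 binds DNA as a dimer with C/EBP proteins at a composite element, and the promoters of the members were searched for it because several move together. RefSeq promoters (GRCm38.p6) were found for 10 of 10 members, with 11 annotated starts since Psat1 has 2. In the 250 bases before the start, on both strands, the element TGATGNAA was present for 3 of the 10 members, Atf3, Asns and Chac1, against 1134 of 32851 promoters (3.45%) in the whole table. The cyclic AMP response element TGACGTCA was present for 0 of the 10, against 508 promoters (1.55%). The stretches around the 3 matches follow in the direction of each gene, with the element in capitals. They cover chr1:191183420-191183459 (minus strand) for Atf3, chr6:7693210-7693248 (minus strand) for Asns and chr2:119351033-119351072 (plus strand) for Chac1. The RefSeq starts of Atf3 and Asns lie inside the spans given above for these genes, and so do their printed stretches.
Atf3: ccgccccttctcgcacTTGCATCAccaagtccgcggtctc
Asns: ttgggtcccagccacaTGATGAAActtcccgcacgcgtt
Chac1: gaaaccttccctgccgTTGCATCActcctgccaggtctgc
The element lay on the gene's own strand in Asns, 23 bases before the start, and on the other strand in Atf3 (110 bases before) and Chac1 (193 bases before). A match is a description of letters and not of binding, and an absent match says only that these letters were not in this window. By group means, all 3 genes with the element were lowest in TRAP1 KO TCM and highest in JMJD3 WT TCM. They differed in the order of WT naive and WT TCM, where Asns and Chac1 were alike and Atf3 was not. Atf4, Ddit3, Trib3 and Mthfd2, without the element in this window, had the same lowest and highest groups.

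All 10 members passed the filter on low counts in every fit. Per kilobase of exon, the scale on which genes can be compared, the transcription factors were the most abundant members. In WT TCM, Atf4 was at 75.1, Atf3 at 57.2 and Ddit3 at 28.7 CPM per kb, followed by Mthfd2 at 20.6, Asns at 17.0 and Shmt2 at 13.8. Trib3 at 6.14, Psat1 at 5.53, Phgdh at 3.02 and Chac1 at 1.60 CPM per kb were the least abundant. In JMJD3 WT TCM the order per kb differed, with Atf3 first at 274, Atf4 next at 141 and Ddit3 at 103, while Psat1 was last at 2.41. Chac1 rested on 20 to 116 counts per library and Phgdh on 41 to 161, so these 2 genes had the widest relative errors. The ratio of the highest to the lowest group mean was 8.669 for Atf3, 6.123 for Trib3, 4.375 for Chac1 and 4.152 for Ddit3, and 1.737 for Shmt2, the smallest among the members.

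**Figure D1:**
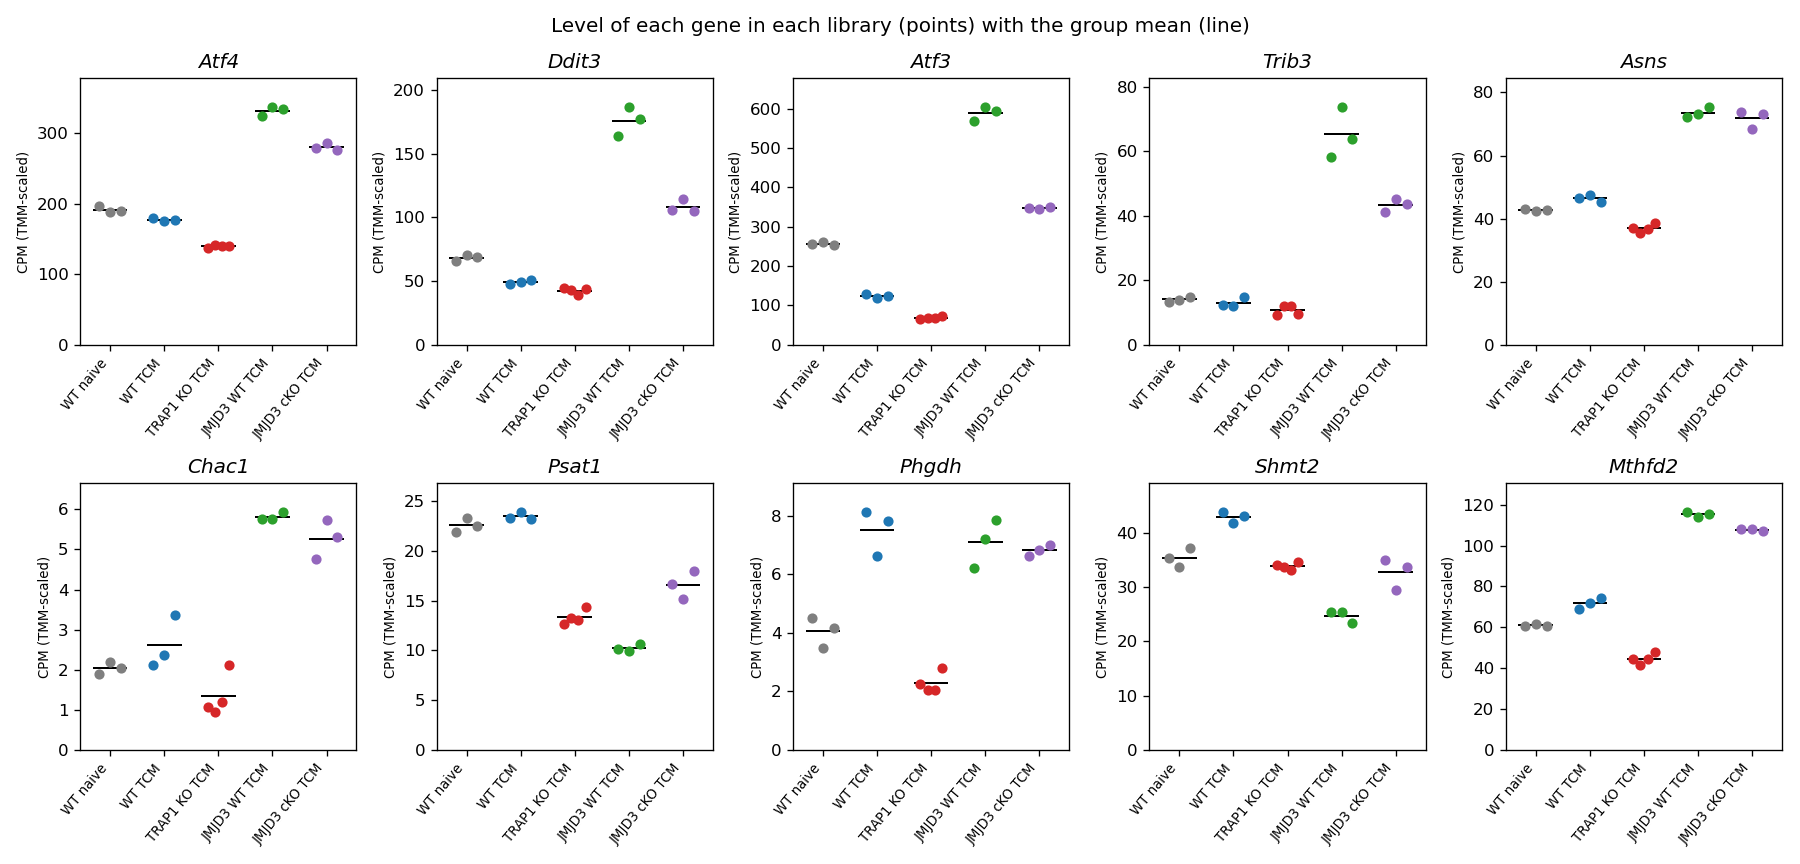
Level of each of the 10 genes in every library (CPM, 1 panel per gene, each axis from 0), with a point per library and a line at the group mean. Atf4, Ddit3, Atf3, Trib3, Asns, Chac1 and Mthfd2 are highest in JMJD3 WT TCM, Psat1 and Shmt2 are lowest there, and every gene but Psat1 and Shmt2 is lowest in TRAP1 KO TCM.

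The members followed a few orders across the 5 groups. Overlap between groups is given here and below as a description of the libraries. The share of all genes whose groups do not overlap was not counted, so a lack of overlap has no baseline. Atf4, Ddit3, Atf3 and Trib3 ran in the order TRAP1 KO TCM, WT TCM, WT naive, JMJD3 cKO TCM, JMJD3 WT TCM by their group means, and for the first 3 no neighbouring groups overlapped. For Trib3, TRAP1 KO TCM overlapped WT TCM, and WT TCM overlapped WT naive. Asns, Chac1 and Mthfd2 had the same order except that WT naive lay below WT TCM. Of these, Mthfd2 had no overlap between neighbours, Asns overlapped between the 2 JMJD3 groups, and Chac1 overlapped between TRAP1 KO TCM and WT naive and between WT naive and WT TCM. The serine and folate enzymes Psat1 and Shmt2 were lowest in JMJD3 WT TCM and highest in WT TCM. Psat1 overlapped only between WT naive and WT TCM, while Shmt2 overlapped between JMJD3 cKO TCM and TRAP1 KO TCM and between TRAP1 KO TCM and WT naive. Phgdh ran from TRAP1 KO TCM over WT naive to the 3 remaining groups, which overlapped one another.

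Loss of TRAP1 was examined in TCM-treated cells. All 10 members were lower in TRAP1 KO TCM than in WT TCM, from 1.15-fold for Ddit3 to 3.28-fold for Phgdh. Their median log2 fold change was −0.51, against 0.01 over all genes tested. With edgeR's quasi-likelihood test at an adjusted p under 0.05, 21.0% of the 14078 genes tested fell and 21.2% rose. The transcription factors came first in the pathway. Atf4 was at 179, 175 and 176 CPM in WT TCM and at 137, 141, 140.2 and 139 CPM in TRAP1 KO TCM (log2 fold change −0.34, SE 0.026, adjusted p = 1.42e-20). The knockout libraries lay close together, and each was below every wild-type one. Ddit3, which encodes the death-promoting factor CHOP, was at 47.6, 49.0 and 50.8 CPM in WT TCM and at 44.1, 42.8, 39.0 and 43.7 CPM in TRAP1 KO TCM (−0.20, SE 0.045, adjusted p = 9.06e-05). This was the smallest change among the members, with groups that did not overlap. Atf3, a stress-induced repressor and partner of AP-1 proteins, was at 128, 119 and 123 CPM in WT TCM and at 64.2, 66.7, 67.3 and 73.7 CPM in TRAP1 KO TCM (−0.85, SE 0.033, adjusted p = 6.31e-36). Every knockout library held far less Atf3 than any wild-type library.

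Trib3 encodes a pseudokinase that ATF4 and CHOP induce and that dampens the response. It was at 12.3, 11.9 and 14.9 CPM in WT TCM and at 9.05, 12.1, 11.9 and 9.66 CPM in TRAP1 KO TCM (−0.27, SE 0.095, adjusted p = 0.0164), with overlapping groups. This call rested on single libraries. It was lost without WT TCM replicate 3 (−0.17, adjusted p = 0.205), without TRAP1 KO TCM replicate 1 (−0.20, adjusted p = 0.101) and without TRAP1 KO TCM replicate 4 (−0.23, adjusted p = 0.0631). Asns, the enzyme that makes asparagine, was at 46.6, 47.6 and 45.4 CPM in WT TCM and at 36.9, 35.3, 36.6 and 38.6 CPM in TRAP1 KO TCM (−0.33, SE 0.048, adjusted p = 6.14e-09). Chac1, which degrades glutathione, was at 2.12, 2.37 and 3.36 CPM in WT TCM and at 1.07, 0.951, 1.19 and 2.10 CPM in TRAP1 KO TCM (−0.96, SE 0.24, adjusted p = 0.000457). One library in each group stood high for Chac1, and the highest knockout library came close to the lowest wild-type one.

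The enzymes that make serine and pass its carbon to mitochondrial folate held the largest change. Phgdh catalyses the entry step of serine synthesis. It was at 8.12, 6.62 and 7.80 CPM in WT TCM and at 2.25, 2.04, 2.04 and 2.81 CPM in TRAP1 KO TCM (−1.71, SE 0.15, adjusted p = 1.75e-17). All 4 knockout libraries also lay below the 3 WT naive libraries, which were at 4.51, 3.48 and 4.15 CPM. Psat1, the next enzyme of the path, was at 23.3, 23.9 and 23.3 CPM in WT TCM and at 12.7, 13.2, 13.1 and 14.4 CPM in TRAP1 KO TCM (−0.81, SE 0.072, adjusted p = 2.31e-17). Shmt2, which turns serine into glycine in mitochondria, was at 44.0, 41.8 and 43.2 CPM in WT TCM and at 34.2, 33.7, 33.2 and 34.6 CPM in TRAP1 KO TCM (−0.33, SE 0.051, adjusted p = 2.4e-08). The knockout libraries were close to the WT naive level of Shmt2, 35.5 ± 1.83 CPM (n = 3). Mthfd2, the mitochondrial folate dehydrogenase, was at 68.8, 72.1 and 74.2 CPM in WT TCM and at 44.3, 41.6, 44.5 and 47.6 CPM in TRAP1 KO TCM (−0.68, SE 0.041, adjusted p = 1.06e-26). None of the 4 enzymes had overlapping groups.

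**Figure D2:**
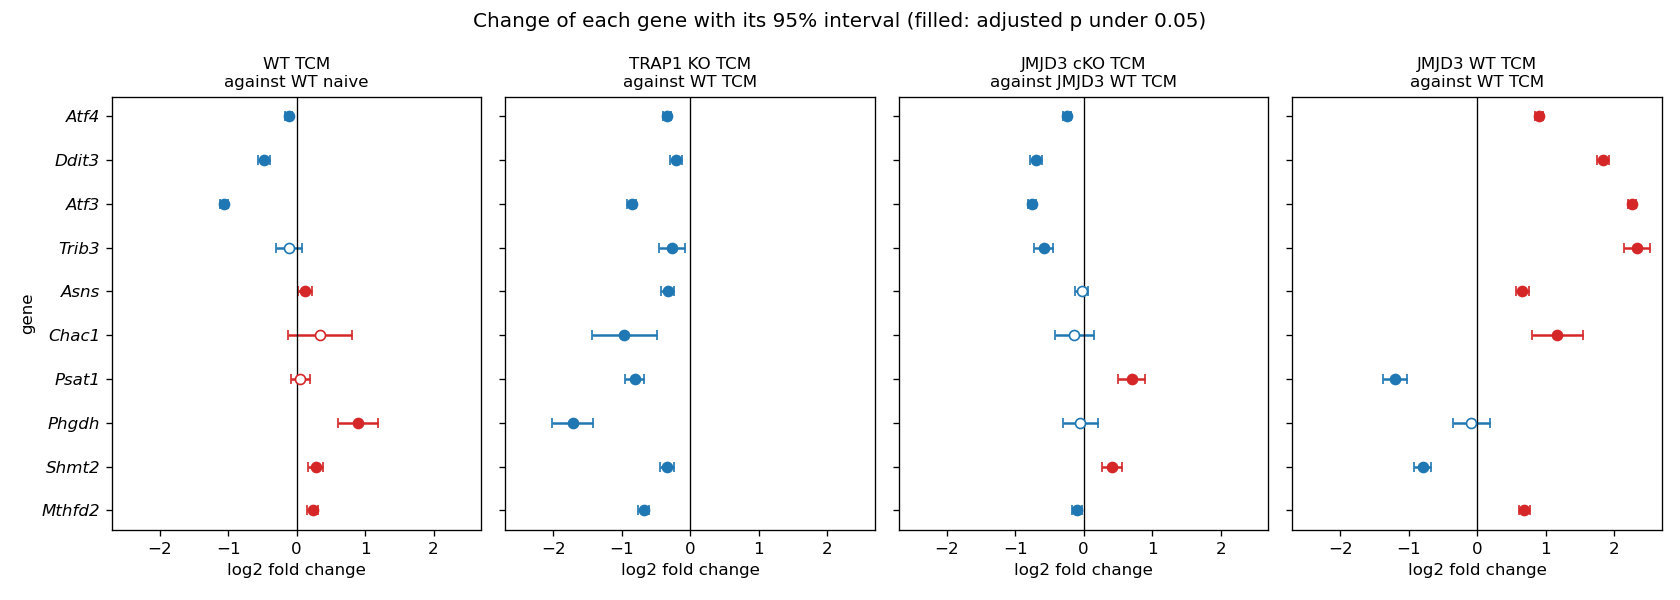
Log2 fold change of each of the 10 genes with its 95% interval in 4 comparisons, 1 per panel: TCM in wild type, TRAP1 KO TCM against WT TCM, JMJD3 cKO TCM against JMJD3 WT TCM, and the wild type of the JMJD3 set against that of the first set (filled points: adjusted p under 0.05). All 10 points lie below 0 for TRAP1 KO TCM, while the other panels hold genes on both sides of 0, among them Atf3 at −1.06 and Phgdh at 0.90 with TCM.

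Other differences accompanied those of the members in TRAP1 KO TCM. Markers of fibroblasts (Col1a1, Col1a2, Col3a1, Dcn, Lum, Pdgfrb and Postn) summed to 0.380 to 0.497 CPM in WT TCM, with Col3a1 and Dcn at 0 counts, and to 5.09 to 7.30 CPM in TRAP1 KO TCM, where 3 of the 4 tested rose. In a bulk sample, fewer cells of a type and less RNA per cell cannot be told apart. Genes of cell division were looked at after their values were seen, because serine and folate enzymes also serve dividing cells. Mki67 was at 78.3 ± 2.14 CPM in WT TCM and 30.4 ± 1.21 CPM in TRAP1 KO TCM, and Top2a at 84.7 ± 1.61 and 31.3 ± 1.40 CPM (n = 3 and 4). Mcm2, which is needed for DNA replication, was at 61.6 and 52.6 CPM. Over the 5 groups Top2a, Mki67 and Psat1 had the same order of means, from JMJD3 WT TCM as the lowest to WT TCM as the highest. Shmt2 departed from it only in JMJD3 cKO TCM (32.9 CPM) and TRAP1 KO TCM (33.9 CPM), whose libraries overlapped. No other member had this order, and neither had Mcm2, whose WT naive mean of 41.1 CPM lay below that of TRAP1 KO TCM. In WT TCM against WT naive, Top2a rose (0.33, adjusted p = 1.17e-11), while Psat1 did not pass the test (adjusted p = 0.56). Mitochondrially encoded genes took 1.25% to 1.28% of counts in WT TCM and 1.42% to 1.45% in TRAP1 KO TCM. The part of these differences in the members' change was not tested.

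Genes around Atf3 also changed in TRAP1 KO TCM. Of the 23 other genes tested with a start within 1 Mb of that of Atf3, 9 were called at least 2-fold higher or lower, where 5.58% of all genes tested were. Their median absolute log2 fold change was 0.59, against 0.16 over all genes. Batf3, a factor of dendritic cells whose start lies 120 kb away, was the named gene with the largest fall (−2.48, adjusted p = 7.45e-10). Within 2.5 Mb the count was 10 of 32 and within 5 Mb 11 of 43, so most of the large changes lay within the narrowest window. Nek2 (−1.79) and, farther out, Cenpf (−1.38), both genes of cell division, were among them. Whether the fall of Atf3 was part of this regional pattern was not tested. The labels do not say whether the TRAP1 knockout and its wild type share a strain background, so loss of TRAP1 and a difference between the lines at this locus cannot be told apart for Atf3. The window was chosen after the values were seen.

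**Figure D3:**
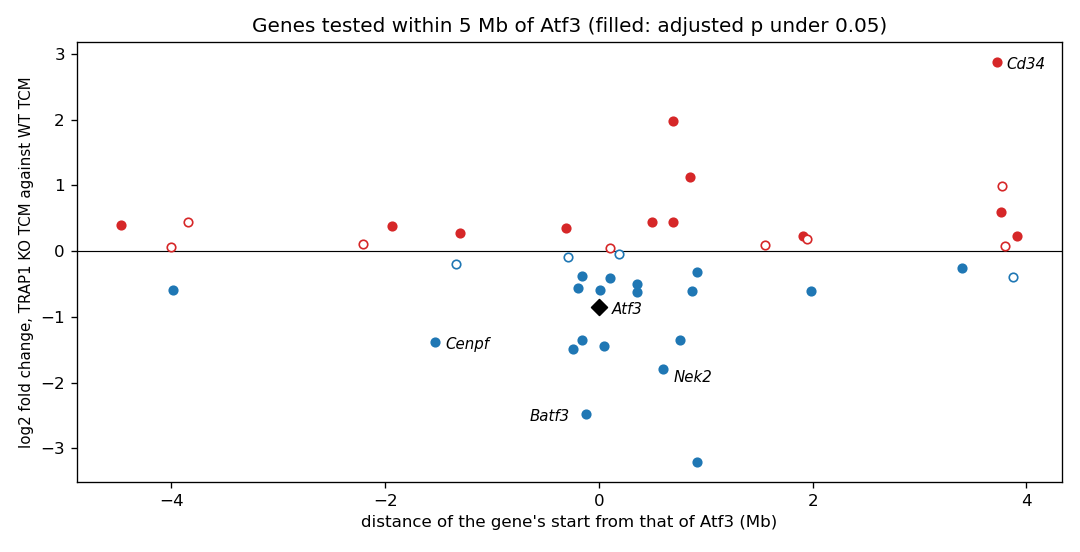
Log2 fold change in TRAP1 KO TCM against WT TCM of genes tested within 5 Mb of Atf3, by the distance of each gene's start from that of Atf3 (filled: adjusted p under 0.05, diamond: Atf3 itself). Of the 43 genes, 11 passed 2-fold, and 9 of these lie within 1 Mb.

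JMJD3 cKO TCM was compared with the wild type of its own line, again with TCM. The regulators fell together, and the enzymes went different ways. Atf4, Ddit3, Atf3 and Trib3 were lower in JMJD3 cKO TCM, Mthfd2 was slightly lower, Psat1 and Shmt2 were higher, and Asns, Chac1 and Phgdh did not pass the test. Thus 5 members fell and 2 rose, where 17.8% of the 13476 genes tested fell and 17.3% rose, and the members' median log2 fold change was −0.12 against 0.01 over all genes. Atf4 was at 324, 337 and 334 CPM in the JMJD3 WT TCM libraries and at 279, 285 and 276 CPM in the JMJD3 cKO TCM ones (−0.24, SE 0.029, adjusted p = 5.32e-09). Ddit3 was at 164, 187 and 177 CPM in the JMJD3 WT TCM libraries and at 106, 115 and 105 CPM in the JMJD3 cKO TCM ones (−0.69, SE 0.041, adjusted p = 5.18e-16). Here CHOP's message changed more than that of Atf4. Atf3 was at 569.5, 605 and 594 CPM in the JMJD3 WT TCM libraries and at 348, 344 and 349.9 CPM in the JMJD3 cKO TCM ones (−0.76, SE 0.027, adjusted p = 1.28e-25). Trib3 was at 58.3, 73.8 and 63.9 CPM in the JMJD3 WT TCM libraries and at 41.0, 45.3 and 43.8 CPM in the JMJD3 cKO TCM ones (−0.58, SE 0.066, adjusted p = 2.27e-07). In none of these 4 genes did a knockout library reach the level of a wild-type one.

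Among the enzymes, Psat1 was at 10.1, 9.98 and 10.7 CPM in the JMJD3 WT TCM libraries and at 16.6, 15.2 and 18.0 CPM in the JMJD3 cKO TCM ones (0.70, SE 0.099, adjusted p = 1.61e-07). Shmt2 was at 25.4, 25.4 and 23.4 CPM in the JMJD3 WT TCM libraries and at 35.1, 29.6 and 33.8 CPM in the JMJD3 cKO TCM ones (0.41, SE 0.070, adjusted p = 6.06e-06). Both were higher in each knockout library than in any wild-type library. Mthfd2 was at 117, 114 and 116 CPM in the JMJD3 WT TCM libraries and at 108, 108 and 107 CPM in the JMJD3 cKO TCM ones (−0.095, SE 0.037, adjusted p = 0.0425). That call was marginal. It was lost with DESeq2 (adjusted p = 0.11) and without any one of JMJD3 WT TCM replicate 1 (0.0936), JMJD3 WT TCM replicate 3 (0.0757), JMJD3 cKO TCM replicate 1 (0.0781), replicate 2 (0.0961) or replicate 3 (0.119), all adjusted p values. Asns was at 72.2, 73.1 and 75.4 CPM in the JMJD3 WT TCM libraries and at 73.9, 68.5 and 73.0 CPM in the JMJD3 cKO TCM ones, and the 95% interval of its log2 fold change ran from −0.12 to 0.06 (adjusted p = 0.643). For Phgdh the values were 6.19, 7.21 and 7.85 CPM against 6.61, 6.83 and 7.01 CPM, and the interval ran from −0.31 to 0.21 (adjusted p = 0.809). Asns and Phgdh thus had overlapping groups, while Chac1 did not overlap, yet its difference missed the threshold at its low counts. Chac1 was at 5.76, 5.75 and 5.94 CPM in the JMJD3 WT TCM libraries and at 4.76, 5.74 and 5.31 CPM in the JMJD3 cKO TCM ones, with an interval from −0.42 to 0.15 (adjusted p = 0.494).

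Markers of other cells and of division also differed between the JMJD3 groups. Neutrophil markers (Ltf, Ngp, Camp, S100a8, S100a9, Elane, Mpo and Ly6g) summed to 21.1 to 25.0 CPM in JMJD3 WT TCM, with Ly6g at 0 counts, and to 38.9 to 40.6 CPM in JMJD3 cKO TCM, where 4 of the 5 tested rose. The macrophage markers summed to 15686.5 to 16095 CPM and 12433 to 12805 CPM, yet of the 7 tested 3 rose and 4 fell. The lower sum came mostly from Lyz2, whose mean went from 7424 to 4582 CPM, and Fcgr1 went from 2587 to 1996 CPM. Adgre1 (1948 to 2177 CPM), Csf1r (1174 to 1279 CPM) and Itgam (327 to 363 CPM) had higher means in the knockout. Dendritic cell markers (Flt3, Zbtb46, Xcr1, Clec9a, Siglech and Ccr7) summed to 8.46 to 10.7 CPM in JMJD3 WT TCM and 4.49 to 5.55 CPM in JMJD3 cKO TCM, where 1 of the 2 tested fell, and 1 of 2 tested B cell markers fell. Mitochondrially encoded genes took 0.744% to 0.786% and 0.821% to 0.865% of counts. Mki67 was at 19.6 ± 1.73 in JMJD3 WT TCM against 36.2 ± 2.93 CPM in JMJD3 cKO TCM, and Top2a at 17.9 ± 0.338 and 36.8 ± 0.384 CPM (n = 3 each). In TRAP1 KO TCM all members were lower, and so were Mki67 and Top2a. In JMJD3 cKO TCM Psat1, Shmt2, Mki67 and Top2a were higher, and Atf4, Ddit3, Atf3, Trib3 and, slightly, Mthfd2 were lower. The part of these differences in the members' change was not tested.

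The difference between the TRAP1 and the JMJD3 effect was itself tested in 1 fit of all 16 libraries. It differed from 0 for 8 of the 10 members, 7 with a lower and 1 with a higher value for TRAP1, where 19.5% and 18.4% of the 14545 genes tested did. The median over the members was −0.45, against 0.00 over all genes. The serine enzymes differed most, with −1.67 (SE 0.20, adjusted p = 1.27e-11) for Phgdh and −1.52 (SE 0.12, adjusted p = 1.38e-20) for Psat1. Shmt2 differed by −0.75 (SE 0.084, adjusted p = 8.73e-13), Mthfd2 at −0.59 (SE 0.055, adjusted p = 2.32e-16) and Asns at −0.30 (SE 0.064, adjusted p = 4.47e-05). Chac1 differed by −0.83 (SE 0.27, adjusted p = 0.0111). Leaving out WT TCM replicate 3 ended this call (−0.63, adjusted p = 0.0896). Of the 8, Ddit3 was the one with the opposite sign, since it fell more in JMJD3 cKO TCM than in TRAP1 KO TCM (0.49, SE 0.061, adjusted p = 3.38e-10). The difference for Trib3 was also positive (0.31) but did not pass the test.

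The other regulators had smaller differences than Ddit3. Atf4 differed by −0.10 (SE 0.037, adjusted p = 0.0232), and lost the call without WT TCM replicate 1 (adjusted p = 0.0558), JMJD3 WT TCM replicate 1 (adjusted p = 0.0668) or JMJD3 cKO TCM replicate 2 (adjusted p = 0.0632). The interval of the difference was −0.18 to −0.01 for Atf3 (adjusted p = 0.0592) and 0.04 to 0.59 for Trib3 (adjusted p = 0.0657). Atf3 passed the test without WT TCM replicate 2 (adjusted p = 0.017), TRAP1 KO TCM replicate 4 (adjusted p = 0.00426) or JMJD3 WT TCM replicate 2 (adjusted p = 0.0196). Trib3 passed without WT TCM replicate 3 (adjusted p = 0.0111), TRAP1 KO TCM replicate 1 (adjusted p = 0.0118), TRAP1 KO TCM replicate 4 (adjusted p = 0.0469) or JMJD3 WT TCM replicate 1 (adjusted p = 0.006). The knockouts belong to different sets, so this difference also holds any difference between lines and sexes in how a knockout acts.

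**Figure D4:**
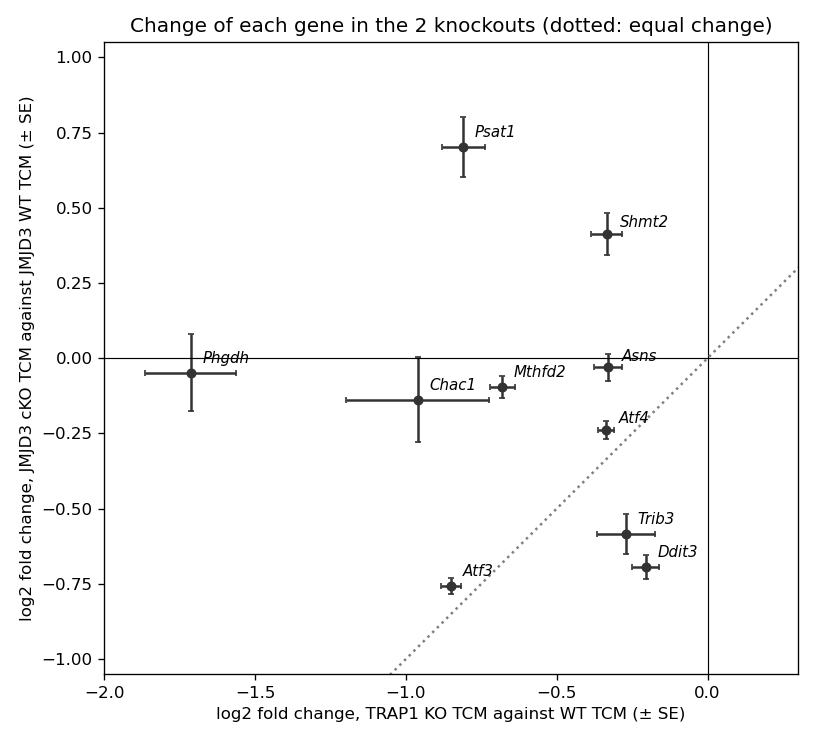
Log2 fold change of each of the 10 genes in TRAP1 KO TCM against WT TCM (x axis) and in JMJD3 cKO TCM against JMJD3 WT TCM (y axis), with bars of 1 SE and a dotted line of equal change. Phgdh lies at −1.71 on the x axis and near 0 on the y axis, Psat1 and Shmt2 lie above 0 on the y axis alone, and Ddit3 and Trib3 lie below the dotted line.

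The medium alone acted on the members in both directions. In WT TCM against WT naive, Ddit3, Atf3 and Atf4 were lower, Phgdh, Shmt2, Mthfd2 and Asns were higher, and Trib3, Chac1 and Psat1 did not pass the test. These 4 rises and 3 falls compare with 21.6% and 20.6% of the 14078 genes tested. Atf3 was at 256, 262 and 253 CPM in WT naive, and its fall in WT TCM was 2.08-fold (−1.06, SE 0.031, adjusted p = 5.65e-44). Ddit3 was at 66.0, 70.1 and 69.2 CPM in WT naive (−0.48, SE 0.045, adjusted p = 1.98e-16). Atf4 was at 197, 188 and 189.9 CPM in WT naive (−0.11, SE 0.027, adjusted p = 0.000231). For all 3 factors, each library with TCM was below each library without it. Phgdh, at 4.51, 3.48 and 4.15 CPM in WT naive, rose 1.86-fold (0.90, SE 0.15, adjusted p = 1.71e-07). Shmt2 was at 35.5, 33.7 and 37.3 CPM in WT naive (0.28, SE 0.053, adjusted p = 6.59e-06), and Mthfd2 at 60.7, 61.6 and 60.4 CPM (0.23, SE 0.042, adjusted p = 1.73e-06).

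The rise of Asns with TCM was small and unstable. It was at 43.1, 42.4 and 42.6 CPM in WT naive (0.12, SE 0.049, adjusted p = 0.0338). The call was lost without WT naive replicate 1 (adjusted p = 0.054), 2 (0.0858) or 3 (0.0752) and without WT TCM replicate 1 (0.0669) or 2 (0.125). Trib3 was at 13.2, 13.9 and 14.9 CPM in WT naive (interval −0.30 to 0.08, adjusted p = 0.383), Chac1 at 1.89, 2.19 and 2.03 CPM (−0.12 to 0.81, adjusted p = 0.244) and Psat1 at 21.9, 23.4 and 22.5 CPM (−0.08 to 0.20, adjusted p = 0.56). These 3 genes had overlapping groups. Neutrophil markers summed to 50.1 to 54.1 CPM in WT naive and 4.09 to 5.46 CPM in WT TCM, where all 6 tested fell and Mpo and Ly6g were at 0 counts. Fibroblast markers summed to 14.7 to 15.5 CPM in WT naive, and all 4 tested fell with TCM. The part of these cells in the members' changes was not tested. The TCM and the TRAP1 comparison share the WT TCM libraries, so a high or low value there moves both in opposite directions.

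The wild types of the 2 sets also differed. With TCM in both, 7 members were higher and 2 lower in JMJD3 WT TCM than in WT TCM, where 30.0% and 31.3% of the 14545 genes tested were. The median over the members was 0.80 against 0.00 over all genes. Trib3 was 5.03-fold (2.33, SE 0.093, adjusted p = 2.36e-19), Atf3 4.78-fold (2.26, SE 0.030, adjusted p = 1.32e-69) and Ddit3 3.58-fold higher (1.84, SE 0.043, adjusted p = 5.8e-48). Chac1 was 2.25-fold, Atf4 1.87-fold, Mthfd2 1.61-fold and Asns 1.58-fold higher. Psat1 was 2.29-fold (−1.20, SE 0.087, adjusted p = 1.15e-22) and Shmt2 1.74-fold lower, and for Phgdh the interval was −0.36 to 0.18 (adjusted p = 0.6). The targets of the response thus split between the sets, with Asns and Mthfd2 higher and Psat1 and Shmt2 lower in the same libraries. Mki67 and Top2a were also lower in JMJD3 WT TCM, at 19.6 against 78.3 CPM and 17.9 against 84.7 CPM. Neutrophil markers were higher there for 6 of 6 tested (21.1 to 25.0 against 4.09 to 5.46 CPM in sum), and so were both B cell markers tested. Of 3 dendritic cell markers tested 2 were higher and 1 lower (8.46 to 10.7 against 0.951 to 1.51 CPM in sum). The part of these cells in the members' differences was not tested.

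Other genes of the pathway were followed in 9 lists, whose counts of calls stand beside the shares of all genes tested. In JMJD3 cKO TCM 17.3% of all genes rose and 17.8% fell, and with TCM 21.6% rose and 20.6% fell. Several list counts lay near these shares. The eIF2 kinases and phosphatase subunits, which start and end the response, had 1 rise and 2 falls among 7 in TRAP1 KO TCM (median −0.020), close to the 21.2% and 21.0% of all genes tested that rose and fell. Eif2ak4 (GCN2), the kinase that senses uncharged tRNA, was at 32.2 ± 0.889 CPM in WT TCM and 26.8 ± 1.68 CPM in TRAP1 KO TCM (−0.26, adjusted p = 0.000105), Eif2ak1 (HRI) fell by 0.11 and Eif2ak2 (PKR) rose by 0.09 on the log2 scale. In JMJD3 cKO TCM, 1 of 7 rose and 3 fell. Ppp1r15a (GADD34, −0.42), which restores translation and is itself a target of ATF4, fell there with Eif2ak2 (−0.30) and Ppp1r15b (−0.25), while Eif2s1 rose (0.17). With TCM, 2 rose, among them Eif2ak3 (PERK) by 0.36, and 1 fell. Of the partners of ATF4 and related factors, 5 of 9 rose and 3 fell in TRAP1 KO TCM (median 0.22). Cebpd was at 58.7 ± 2.48 CPM in WT TCM and 96.0 ± 3.84 CPM in TRAP1 KO TCM, and Nfe2l2 (0.40) and Cebpb (0.30) also rose, while Atf5 (−0.42), Cebpa (−0.26) and Cebpg (−0.17) fell. In JMJD3 cKO TCM 3 of 9 rose and 4 fell, and with TCM 6 rose and 1 fell.

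Most of the stress regulators that ATF4 can induce went up in TRAP1 KO TCM. Of 11 tested, 8 rose and 3 fell, with a median log2 fold change of 0.31, against −0.51 for the members and 0.01 for all genes. Trib1 was at 38.6 ± 2.36 CPM in WT TCM and 55.5 ± 2.23 CPM in TRAP1 KO TCM (0.53, adjusted p = 6.19e-17). Ddit4 (REDD1, 0.63), Bbc3 (PUMA, 0.38), Gdf15 (0.35) and Sesn2 (0.31) rose as well. The 3 that fell were Gadd45a (11.4 ± 0.584 to 6.84 ± 0.690 CPM), Herpud1 (50.4 ± 2.46 to 36.9 ± 1.37 CPM) and Nupr1 (−0.25). Several of these genes also answer to other factors, such as p53 for Sesn2, Bbc3 and Gadd45a. In JMJD3 cKO TCM 1 of 10 rose and 3 fell. Nupr1, a chromatin-bound stress protein, was at 70.6 ± 2.52 in JMJD3 WT TCM against 45.6 ± 0.622 CPM in JMJD3 cKO TCM (−0.63, adjusted p = 1.97e-14), and Gadd45a rose (0.39). With TCM 4 of 11 rose and 4 fell.

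Amino acid metabolism beyond the members leaned downwards with loss of TRAP1, where 21.0% of all genes tested fell and 21.2% rose. Of 11 further enzymes of serine, glycine, folate and proline metabolism tested, 5 fell and 2 rose (median −0.19). Gpt2 (−0.50) and Aldh18a1 (−0.35), the latter an enzyme of proline synthesis, fell, while Mthfd2l (0.60) and Psph (0.24, adjusted p = 0.0499) rose, and under each of the 4 alternative fits 1 gene of the list rose. Of 8 amino acid transporters, 5 fell and 2 rose (median −0.34). The glutamine carrier Slc1a5 was at 31.9 ± 0.796 CPM in WT TCM and 17.0 ± 1.003 CPM in TRAP1 KO TCM (−0.90, adjusted p = 4.63e-22), and Slc38a2 fell by 0.29, while Slc3a2 (0.25) and Slc38a1 (0.08) rose. Among 12 cytosolic tRNA synthetases 9 fell and 1, Eprs (0.20), rose (median −0.14). Cars was at 70.1 ± 2.57 and 51.3 ± 1.06 CPM, Aars at 234 ± 1.59 and 193 ± 3.57 CPM, and Gars fell by 0.28.

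Of the same lists in JMJD3 cKO TCM, the serine and folate list held 1 rise, Mthfd1 (11.7 ± 0.149 to 17.1 ± 0.898 CPM), and 1 fall, Aldh1l1 (−0.21), among 11. Over all genes tested, 17.3% rose and 17.8% fell in that comparison. Of the 8 transporters 2 rose, Slc1a5 (0.50) and Slc1a4 (0.35), and Slc3a2 fell (−0.35). Of the 12 synthetases 3 rose, among them Iars (0.33), and 3 fell, among them Aars (−0.31) and Wars (−0.27). With TCM, 3 of 11 serine and folate enzymes rose and 1 fell, 6 of 8 transporters rose and 1 fell, and 5 of 12 synthetases rose and 1 fell. Over all genes tested, 21.6% rose and 20.6% fell with TCM. The cystine carrier Slc7a11 was the transporter with the largest rise (1.76), from 0.639 ± 0.222 to 2.17 ± 0.227 CPM.

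**Figure D5:**
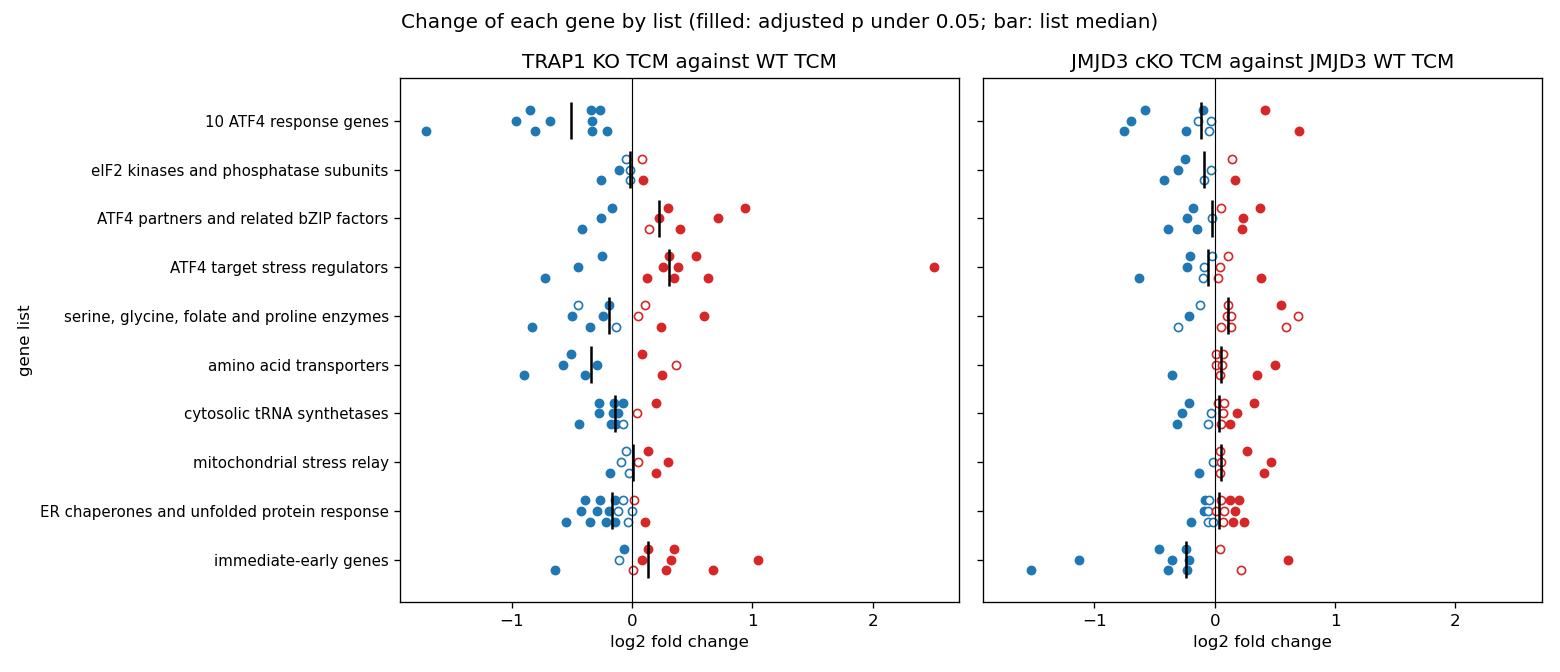
Log2 fold change of every tested gene of the 10 members and of 9 further lists, for TRAP1 KO TCM against WT TCM (left) and JMJD3 cKO TCM against JMJD3 WT TCM (right), 1 point per gene (filled: adjusted p under 0.05) with a bar at each list's median. In TRAP1 KO TCM the members' bar is at −0.51 and that of the ATF4 target stress regulators at 0.31.

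Neighbouring stress programs gave further context, and their counts also stand beside the shares of all genes given above. The mitochondrial relay list, which holds Oma1 and Dele1, the pair that carries a mitochondrial signal to eIF2 kinases, and mitochondrial chaperones and proteases, had 3 rises (Hspa9 by 0.13, Yme1l1 by 0.20 and Clpp by 0.30) and 1 fall (Lonp1, −0.19) among 8 in TRAP1 KO TCM (median 0.01). In JMJD3 cKO TCM 3 of 8 rose and 1 fell, and with TCM 1 of 8 rose and 3 fell. The chaperonin Hspd1 was at 66.9 ± 5.26 in JMJD3 WT TCM against 92.5 ± 4.43 CPM in JMJD3 cKO TCM. Of 16 chaperones and regulators of the endoplasmic reticulum, 10 fell and 1, Pdia4 (0.11), rose in TRAP1 KO TCM (median −0.17). Calr was at 1048 ± 3.92 and 777 ± 22.9 CPM, Hspa5 (BiP) at 991 ± 12.1 and 804 ± 4.99 CPM, and Sdf2l1 fell by 0.55. In JMJD3 cKO TCM 5 of these 16 rose and 3 fell, and with TCM 7 rose and 8 fell. Immediate-early genes respond within a short time to signals, and those of the Fos and Jun families encode partners of ATF3. The list had 7 rises and 2 falls among 11 in TRAP1 KO TCM (median 0.13). Ier3 was at 23.7 ± 1.65 and 48.9 ± 1.65 CPM, Fosl2 rose by 0.68, and Egr2 (−0.64) and Jun (−0.065) fell. The JMJD3 cKO TCM libraries had 8 falls and 1 rise, Egr2 (0.61), among 11 (median −0.24). Dusp1 was at 245 ± 8.59 and 111 ± 4.80 CPM, Egr1 at 6.97 ± 0.651 and 2.40 ± 0.123 CPM, and Junb at 319 ± 10.2 and 230.1 ± 6.15 CPM. With TCM 8 of the 11 rose and 1 fell.

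The genes whose levels were most like those of 3 members over all 16 libraries were found among 9376 genes whose mean was 5 CPM or more, by Pearson r of log2 CPM. The libraries fall into 2 separate sets, so r is also given within the 10 libraries of the first set and the 6 of the JMJD3 set, as a description without a test. For Atf4 the closest were Zbp1 (0.998 over all libraries, 0.984 and 0.988 within the sets), Mlkl (0.997, 0.983 and 0.973), Ctsb (0.997, 0.986 and 0.974), Tbc1d9 (0.997, 0.978 and 0.995) and Clcn7 (0.996, 0.984 and 0.987). Those of Ddit3 were Kdr, Ifit3b, Usp18, Tcirg1 and Tapbp, each with an r over all libraries of 0.996 or 0.997, and within the sets of 0.966 to 0.986 and 0.978 to 0.994. For Asns they were Fcgr4 (0.991, 0.935 and 0.362), Trim34a (0.990, 0.971 and 0.586), Scpep1 (0.988, 0.965 and 0.439), Prdx4 (0.986, 0.869 and −0.04) and Dhrs1 (0.984, 0.975 and 0.08). Within the JMJD3 set, r was thus 0.973 to 0.995 for the genes most like Atf4 and at most 0.586 for those most like Asns. Atf4 differed between the groups of that set and Asns did not pass the test there. The genes were also picked on these same libraries, so the contrast in r is no measure of shared control.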

How the data were processed

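Per the labels' protocols, RNA was freed of ribosomal RNA (Ribo-Zero), and TruSeq Stranded libraries were read on a HiSeq instrument. HISAT, StringTie, Bowtie2, RSEM and mm10 are named in the submitters' processing notes. What each did, the counter, the annotation release and the use of strand: not given in the sources used here. Per library the authors deposited a table of whole-number counts, used as raw counts. GENCODE M21 gave symbols for 54495 of 54532 identifiers, and the rest took at most 0.0036% of a library. The 10 members and all gene lists were chosen with earlier results of these data known.

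The counts were fitted with edgeR 4.0.16 under R 4.3.3 (TMM scaling, filterByExpr with a minimum of 10 counts, robust quasi-likelihood fit, Benjamini-Hochberg adjustment over all genes tested, called at an adjusted p under 0.05). The TCM and TRAP1 comparisons came from a fit of 10 libraries (7 residual degrees of freedom), the JMJD3 comparison from its own 6 (4 degrees of freedom), and the comparison of wild types and of effects from all 16 (11 degrees of freedom). CPM use TMM-scaled totals over all 16 libraries, as mean ± SD. Fold changes are log2 of test over control, intervals are at 95%, and likeness used log2(CPM + 0.5). Named genes were the 10 members, Trap1 and Kdm6b, up to 3 called genes per list and comparison by smallest adjusted p with exceptions to a list's direction, and the 5 genes most like Atf4, Ddit3 and Asns. Genes of cell division, sex and the Atf3 region, and further list members, were named after their values were seen. The test was checked on simulated counts with 100 changed genes per fold. At 2-fold it recovered 86% for TCM (14078 genes), 90% for TRAP1 (14078 genes), 89% for JMJD3 (13476 genes), 83% for the wild types and 77% for the difference of effects (14545 genes each), and at 1.5-fold 76%, 74%, 77%, 71% and 56% in the same order. False calls were 3.14% to 6.29% of all calls. Far more genes were called in the data than were changed in the simulation, so these rates describe the simulated setting only. Replicates differed by more than sampling noise (chi-square per gene 1.77 to 2.89), so no library's counts were a copy of another's. Such a value cannot tell separate animals or cultures from repeated libraries of the same culture. Alternatives were DESeq2's size factors, the DESeq2 1.42.0 Wald test, no filter, a replicate block and leaving out each library. For TCM, TRAP1 and JMJD3 a fit of all 16 libraries was added, and for TCM and TRAP1 a fit of only the groups compared.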

Additional observations from a re-analysis of the deposited data

How the results depend on the processing

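Over all alternatives, 120 of 126 counts of members and 63 of 63 counts of all genes called stayed within 1.5 times the reported count, and 595 of 630 member fold changes kept their direction and side of the threshold. Of the other fold changes, 22 lost the call, 10 gained it and 3 changed sign without a call in either fit. Leaving out a library gave −0.049 to 0.0031 for Asns in JMJD3 cKO TCM (highest without JMJD3 cKO TCM replicate 2), −0.14 to 0.030 for Phgdh there (highest without JMJD3 WT TCM replicate 3) and −0.18 to 0.0012 for Phgdh between the wild types (highest without JMJD3 WT TCM replicate 1). The 6 member counts beyond 1.5 times were all of members higher in the TRAP1 minus the JMJD3 effect, where 1 became 2 with no filter on low counts and with the replicate block, and leaving out a library gave 1 to 2. The second gene was Trib3. Leaving out a library gave 9 to 10 members lower in TRAP1 KO TCM, 4 to 5 lower in JMJD3 cKO TCM, 3 to 4 higher with TCM and 6 to 8 lower in the difference of effects. With no filter the calls of Asns with TCM (adjusted p = 0.0961), Mthfd2 in JMJD3 cKO TCM (0.259) and Atf4 in the difference of effects (0.103) were lost. Of 216 list counts 205 stayed within 1.5 times and 11 did not, among them genes higher in the serine and folate list in TRAP1 KO TCM, from 2 to 1 under all 4 alternative fits. The numbers of the labels did not pair the libraries, since deviations of same-numbered libraries correlated at −0.0475 to 0.0576. With the replicate block, 5577 genes were called for TRAP1 and all 10 members fell, 4 members fell for JMJD3 since Mthfd2 lost its call (0.0645), and Atf3 (0.00623) and Trib3 (0.00694) passed in the difference. DESeq2's scaling moved the median log2 fold change by at most 0.0121. Depth limits Chac1 and Phgdh, with as few as 20 and 41 counts in a library. The cause of these changes was not tested.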
